A study of Mus musculus with 8 samples.

Results

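The 38 genes described here encode the core machinery of macroautophagy, the route by which a cell encloses part of its own content in a membrane and delivers it to the lysosome. They were given as a list of symbols and matched to array probes through the RefSeq accession that each probe was designed to. All 38 were found, among 23911 named genes and 42982 features (named genes and unnamed probes) tested. They fall into 6 steps: 5 genes of initiation, 7 of nucleation, 5 of the phagophore membrane, 11 of the conjugation systems, 5 Atg8 proteins and 5 cargo receptors.

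Expression was measured in the liver of male recombinant congenic mice on the background of the New Zealand Obese (NZO) strain, with the strain label NZO/HiBomDifexC57BL/6J. The lines were Ltg/NZO.5.3N/N, called NN here, and Ltg/NZO.5.3N/B, called NB here, and they differed in 5.3 Mbp on chromosome 18; the labels do not say what N and B stand for. Both lines received a high-fat diet (45% fat) until week 5. There were 4 arrays of each genotype, with 1 Cy3-labelled total RNA sample per array. Nothing in the labels says outright that each sample came from a separate animal, so each p-value reflects the spread between samples, part of which may be technical. A whole liver sample holds several cell types, and fewer cells of a type and less RNA per cell cannot be told apart in it.

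In macroautophagy the ULK1 kinase complex starts the process, and a lipid kinase complex around Becn1 and Pik3c3 marks the membrane on which the phagophore forms. Membrane is supplied through Atg9 vesicles and the Atg2 lipid transfer proteins, and ubiquitin-like conjugation systems then attach Atg8 proteins, such as LC3, to lipid. Cargo receptors link material to the Atg8 proteins. In hepatocytes the pathway turns over mitochondria and protein and takes part in the breakdown of lipid droplets. Much of its control acts on proteins, which the arrays do not measure.

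Of the 49 probes for the 38 genes, those of Atg16l2 and Atg4c are shown. The probes of Atg16l2 differed in how far they moved among arrays, and the genotypes overlapped at one probe of Atg4c and not at the other. The probes are 45 to 58 bases long, and all 49 were well above background on 8 of 8 arrays. Each gene is given by its brightest probe unless stated otherwise. The first 30 bases of the probes of Atg16l2 (chromosome 7) and Atg4c (chromosome 4) follow, 5′ to 3′ as deposited, with runs of 3 or more repeats of TG or GT in capitals.
Atg16l2, brightest probe, XM_006508226.1: TGTGTGTGgtaTGTGTGTGTatccaactta
Atg16l2, second transcript model, XM_006508231.1: tcaatgtactttcctactgcaatgacgtgg
Atg16l2, curated transcript, NM_001111111.1: ctggcctgtttgttaaaaatcaaagtgtgg
Atg4c, brighter probe, NM_001145967.1: ggtgtcatgacatttaggagctgagacatg
Atg4c, dimmer probe, XR_376316.1: aggccagtgcaggccagggctctctctcca
The brightest probe of Atg16l2 opens with a pair of TG runs, whereas the opening stretches of the other 4 probes hold none.

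The genotype labels were checked first. F830016B08Rik, an immunity-related GTPase gene on chromosome 18, read -1.90 to -1.49 (log2 relative to each array's 75th percentile) on the 4 NB arrays and -5.79 to -4.63 on the NN arrays, without overlap. Of the 4 NN arrays 2 measured it well above background, so no fold is given (limma adjusted p = 0.00225). All 10 hepatocyte markers were well above background on 8 of 8 arrays. So were 8 markers of Kupffer cells, 8 of endothelial and 8 of stellate cells, 6 of cholangiocytes, 6 of lymphocytes and 4 of pancreas. Of 3 adipocyte markers measured, 2 were. Most probes of every array passed this call, so it does not show that a cell type was present. Ins2, a pancreas marker, had a mean level of 3.26 in NB and 3.29 in NN, above Pecam1, an endothelial marker, at 2.35 and 2.46. Kupffer cell markers had a median log2 fold change of 0.18, 7 of 8 above 0. Their summed level was 51.7 to 68.7 times the array's 75th percentile on the NN arrays and 54.4 to 74.5 on the NB arrays. The medians of the other lists ran from -0.04 (cholangiocytes, 1 of 6 above 0) to 0.08 (stellate cells, 5 of 8 above 0). In every list 0 markers passed the adjusted threshold. Past the unadjusted threshold of 0.05 in limma were 1 hepatocyte marker, Cps1 (-0.30), and 1 stellate marker, Pdgfrb (0.36). In the Kupffer cell list and the remaining lists 0 were. The share of probes well above background was 74.9% to 80.1% per array, and the difference between genotypes did not pass the threshold (exact permutation test over arrays, two-sided p = 0.886, smallest possible 0.0286). Only 3 of 42982 features passed an adjusted p of 0.05 between the genotypes.

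The transcripts of the autophagy machinery did not differ detectably between NB and NN livers at any step. With limma, 0 of the 38 genes passed an adjusted p of 0.05 (0.00698% of all features did, either direction), and 0 had an unadjusted p under 0.05 (1.69% of all features did). Log2 fold changes, NB minus NN throughout, ran from -0.21 for Ulk1 to 0.12 for Atg4c, and 34 of the 38 lay within 0.1 of 0. Their median was -0.011, beside -0.0097 over all features. NB was the higher genotype in 15 genes (39.5%) and the lower in 23, while 45.9% of all features were higher in NB. This majority rested on few arrays: 23 genes were higher in NB without NB 2, with a median of 0.02, and 14 without NB 8, with a median of -0.03. Over the scalings tried the number ran from 15 to 20 and the median from -0.011 to 0.0028. For 37 of the 38 genes the 95% interval of the difference lay inside 1.5-fold either way, which held for 82.3% of all features. The exception was Atg16l2, whose interval ran from -0.86 to 0.59 on the log2 scale. For the other 37 the intervals allowed NB to be at most 1.42-fold lower (Ulk1) or 1.44-fold higher (Calcoco1). The residual SD among arrays of a genotype had a median of 0.123 on the log2 scale against 0.172 over all features, and 31 of the 38 lay below the latter. All 49 probes of these genes were well above background on 8 of 8 arrays, whereas a feature needed 4. Neither this comparison nor that of the intervals was matched for signal level.

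**Figure D1:**
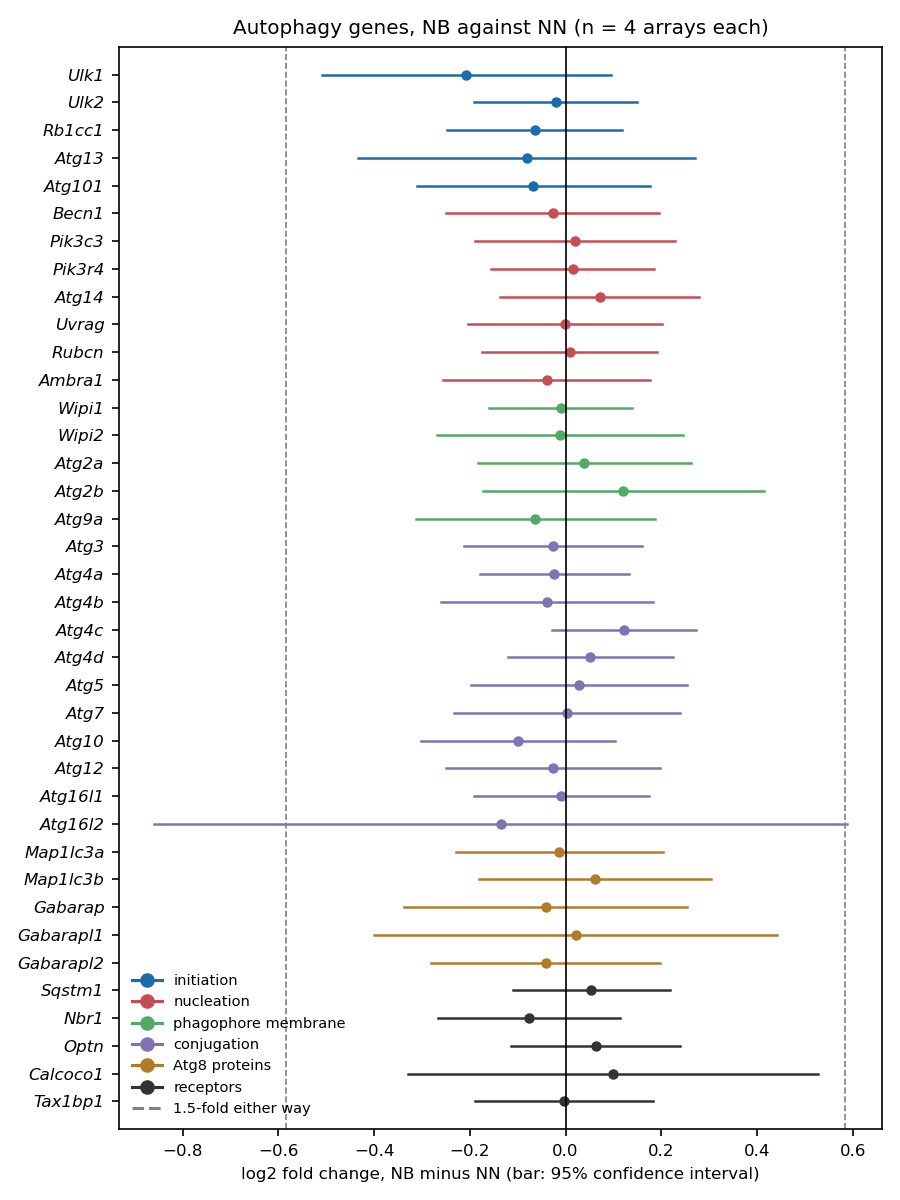
Log2 fold change of each of the 38 autophagy genes, NB minus NN (x axis), with the 95% confidence interval from limma as a bar and 4 arrays per genotype; colours mark the step and dashed lines 1.5-fold either way. Every interval includes 0, and 37 of the 38 lie between the dashed lines, the exception being Atg16l2.

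Initiation was the step in which every gene had a value below 0, with a median of -0.07 over 5 genes that stayed below 0 under each scaling, and 0 past either threshold. Ulk1, the kinase that starts autophagy, read 4.84, 4.59, 4.44 and 4.79 on the NN arrays and 4.49, 4.74, 4.24 and 4.35 on the NB arrays, in log2 units above each array's own 75th percentile of signal, the scale used for every level below. The arrays are given in the order of their sample numbers, NN 1, NN 4, NN 6 and NN 7, then NB 2, NB 3, NB 5 and NB 8. The lowest Ulk1 values were on NB 5 and NB 8, but NB 3 lay above NN 4 and NN 6, and the genotypes overlapped. The difference was -0.21 (SE 0.133, unadjusted p = 0.154). With 1 array left out it ranged from -0.30 to -0.14. The -0.30, with an unadjusted p of 0.0423 in limma, came without NB 3, the highest of the NB arrays. Atg13, the adaptor that binds the kinase, read 3.06, 2.97, 3.42 and 3.41 on the NN arrays and 2.84, 3.06, 3.22 and 3.42 on the NB arrays. NB 2 was lowest, NN 6 and NB 8 were highest, and the difference was -0.08 (SE 0.155, unadjusted p = 0.612). Atg101, which stabilises Atg13, read 3.02, 2.95, 2.78 and 2.91 on the NN arrays and 2.67, 3.06, 2.71 and 2.94 on the NB arrays, with NB 2 and NB 5 lowest and a difference of -0.07 (SE 0.107, unadjusted p = 0.548). Rb1cc1, the scaffold also known as FIP200, read 0.26, 0.31, 0.09 and 0.34 on the NN arrays and 0.16, 0.15, 0.27 and 0.15 on the NB arrays, and NN 6 was lower than every NB array. Its difference was -0.06 (SE 0.0808, unadjusted p = 0.445). Ulk2, the second kinase, had a pair of probes that differed in sign. In a fit of every probe, used for all second probes here, the brighter gave -0.02 (SE 0.0752) and the dimmer 0.03 (SE 0.0951), both within the error of 0.

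Nucleation genes had a median of 0.01, or -0.01 without NB 3, with 4 of 7 above 0. Becn1, the core subunit of the lipid kinase complex, read 3.02, 2.95, 3.12 and 3.09 on the NN arrays and 2.82, 2.97, 3.04 and 3.22 on the NB arrays. NB 2 was the lowest and NB 8 the highest of the 8 arrays, so the NB values enclosed all NN values, and the difference was -0.03 (SE 0.0983, unadjusted p = 0.789). Pik3c3, the catalytic subunit, which is encoded on chromosome 18, read 0.99, 0.84, 0.69 and 0.80 on the NN arrays and 0.90, 0.97, 0.74 and 0.79 on the NB arrays, with overlapping genotypes and a difference of 0.02 (SE 0.0919, unadjusted p = 0.83). Atg14, the subunit that sends the complex to autophagy, read 0.85, 0.68, 0.57 and 0.74 on the NN arrays and 0.88, 0.88, 0.68 and 0.68 on the NB arrays. It was highest on NB 2, NB 3 and NN 1 and lowest on NN 6, and the difference was 0.07 (SE 0.0914, unadjusted p = 0.456). Ambra1, which links Becn1 to the initiation kinase, read 0.52, 0.49, 0.63 and 0.71 on the NN arrays and 0.37, 0.62, 0.51 and 0.70 on the NB arrays, with NB 2 lowest and a difference of -0.04 (SE 0.0951, unadjusted p = 0.692). The remaining members, Pik3r4, Uvrag and Rubcn (a negative regulator of the complex), had differences between -0.0015 and 0.015.

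Genes of the phagophore membrane had a median of -0.01, which turned to 0.07 without NB 2, 0.03 without NN 6 and 0.0011 in the authors' value table, with 2 of 5 above 0. Atg9a, the transmembrane scramblase carried on vesicles, read 2.26, 2.39, 2.57 and 2.47 on the NN arrays and 2.13, 2.40, 2.36 and 2.55 on the NB arrays. NB 2 was lowest and NN 6 highest, and the difference was -0.06 (SE 0.11, unadjusted p = 0.581). Atg2b, a lipid transfer protein, read -0.54, -0.50, -0.88 and -0.96 on the NN arrays and -0.59, -0.60, -0.78 and -0.44 on the NB arrays, with NN 6 and NN 7 lowest and NB 8 highest. Its difference was 0.12 (SE 0.129, unadjusted p = 0.375). Atg2a, its paralog, differed by 0.04 (SE 0.0979, unadjusted p = 0.701) at the brighter probe and by -0.03 (SE 0.151) at the dimmer, opposite in sign and both within the error of 0. Wipi1, which binds the lipid made by the kinase complex, had the smallest spread of the 38 genes, with a residual SD of 0.0379 and values of 2.27, 2.22, 2.24 and 2.32 on the NN arrays and 2.28, 2.21, 2.28 and 2.24 on the NB arrays.

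Conjugation genes had a median of -0.02, which turned to 0.02 without NB 2, with 4 of 11 above 0. Atg4c, a protease that processes Atg8 proteins, was the gene with the smallest unadjusted p. It read 0.04, -0.05, -0.04 and 0.04 on the NN arrays and 0.09, 0.11, 0.14 and 0.14 on the NB arrays. The 4 NB values all lay above the 4 NN values, which held for 1 of the 38 genes (2.63%) and for 0.426% of all features. The reverse, every NB value below every NN value, held for 0 of the 38 genes and for 0.731% of all features. The difference was 0.12 (SE 0.0661, unadjusted p = 0.1), or 1.09-fold, with an adjusted p rounding to 1. The second probe of the gene read -1.24, -1.38, -1.42 and -1.42 on the NN arrays and -1.27, -1.33, -1.52 and -1.05 on the NB arrays. There NB 5 was the lowest array and NB 8 the highest, the genotypes overlapped, and the difference was 0.07 (SE 0.107). The other 3 Atg4 proteases, Atg4a, Atg4b and Atg4d, had differences of -0.02, -0.04 and 0.05.

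Atg10, an E2-like enzyme of the Atg12 system, read 0.40, 0.24, 0.09 and 0.11 on the NN arrays and 0.12, 0.15, 0.04 and 0.14 on the NB arrays. NN 1 was highest and NB 5 lowest, and the difference was -0.10 (SE 0.0892, unadjusted p = 0.297). Atg7, the E1-like enzyme shared by both conjugation systems, read 1.48, 1.32, 1.15 and 1.24 on the NN arrays and 1.51, 1.18, 1.24 and 1.28 on the NB arrays, with a difference of 0.0026 (SE 0.104, unadjusted p = 0.98). Atg5, the acceptor of Atg12, read 2.93, 2.67, 2.54 and 2.63 on the NN arrays and 2.85, 2.69, 2.65 and 2.70 on the NB arrays, and NN 1 was highest, with a difference of 0.03 (SE 0.0994, unadjusted p = 0.784). Atg3, the E2-like enzyme of the Atg8 system, Atg12, the ubiquitin-like modifier, and Atg16l1, which directs the conjugate to the membrane, had differences of -0.03, -0.03 and -0.01. The dimmer probes of Atg12 and Atg16l1 gave -0.18 (SE 0.106, unadjusted p = 0.122) and -0.15 (SE 0.109, unadjusted p = 0.211). Atg12, like Pik3c3, is encoded on chromosome 18, and the place of both relative to the segment that differs is not given here.

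Atg8 proteins had a median of -0.01 with 2 of 5 above 0, and the median was 0.05 without NB 2, 0.03 without NN 1, 0.0054 with quantile normalization, 0.0075 in the authors' value table and 0.03 with normexp background correction. Gabarapl1 read 6.50, 6.55, 5.70 and 6.04 on the NN arrays and 6.28, 6.35, 6.12 and 6.12 on the NB arrays. The NN arrays fell apart into NN 1 and NN 4, above every NB array, and NN 6 and NN 7, below every NB array, so the mean difference of 0.02 (SE 0.185, unadjusted p = 0.913) lay between values that differed by up to 0.85. Gabarap read 4.41, 4.38, 4.67 and 4.59 on the NN arrays and 4.16, 4.49, 4.51 and 4.73 on the NB arrays, lowest on NB 2 and highest on NB 8, with a difference of -0.04 (SE 0.13, unadjusted p = 0.757). Map1lc3b, the LC3 form read as the usual autophagosome marker at the protein level, read 3.73, 3.83, 3.65 and 3.69 on the NN arrays and 3.61, 3.92, 3.63 and 3.99 on the NB arrays. NB 8 and NB 3 were the highest and NB 2 the lowest, and the difference was 0.06 (SE 0.107, unadjusted p = 0.577). Gabarapl2 and Map1lc3a had differences of -0.04 and -0.01.

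Cargo receptors had a median of 0.05, with 3 of 5 above 0. Sqstm1, or p62, which carries ubiquitinated cargo, read 4.72, 4.66, 4.73 and 4.70 on the NN arrays and 4.77, 4.78, 4.84 and 4.64 on the NB arrays. NB 2, NB 3 and NB 5 were above all NN arrays and NB 8 was below them, and the difference was 0.05 (SE 0.0721, unadjusted p = 0.474). Calcoco1, a receptor for the endoplasmic reticulum and Golgi, read 3.11, 3.10, 2.81 and 3.20 on the NN arrays and 3.30, 3.58, 3.08 and 2.65 on the NB arrays. NB held both the highest array, NB 3, and the lowest, NB 8, and the difference was 0.10 (SE 0.188, unadjusted p = 0.612). Optn, a receptor for ubiquitinated mitochondria, read 2.90, 2.78, 2.68 and 2.81 on the NN arrays and 2.79, 2.87, 2.82 and 2.94 on the NB arrays, with a difference of 0.06 (SE 0.0775, unadjusted p = 0.438). Nbr1, a partner of p62, differed by -0.08 (SE 0.0837, unadjusted p = 0.385) at its brighter probe, where NB 2 was lowest, and by 0.01 (SE 0.0861) at the dimmer. Tax1bp1, a receptor for protein aggregates, differed by -0.0024.

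**Figure D2:**
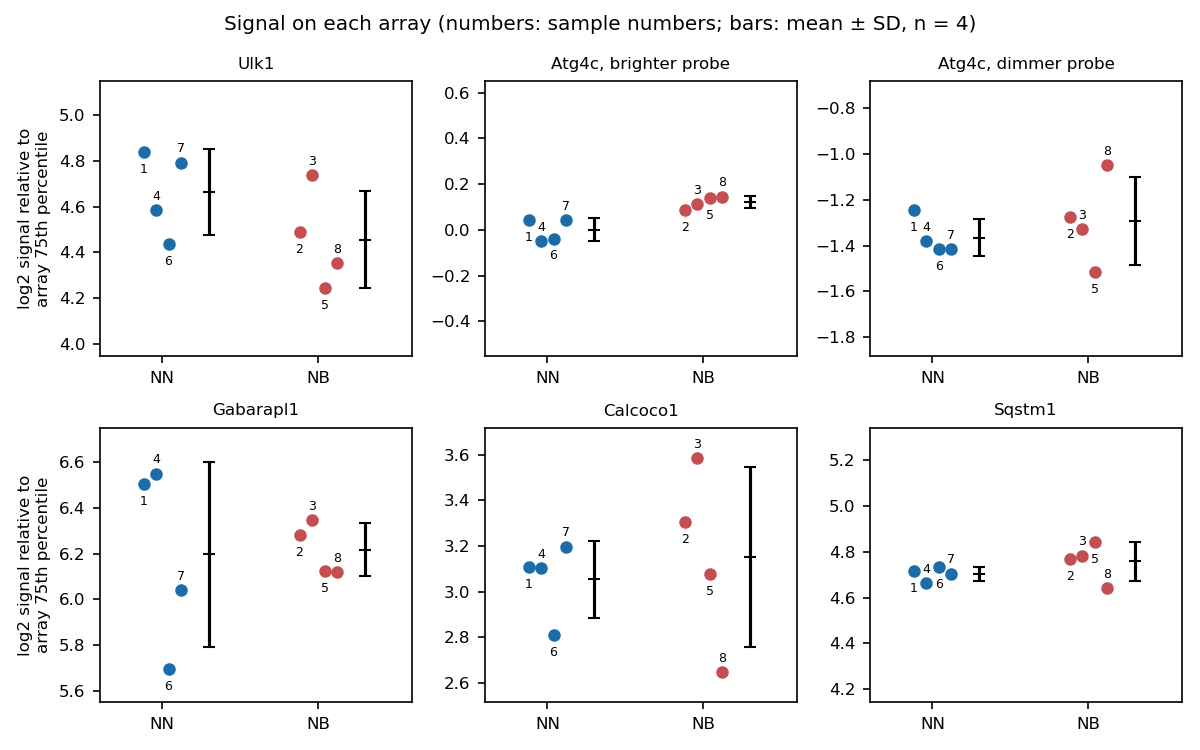
Signal of Ulk1, both probes of Atg4c, Gabarapl1, Calcoco1 and Sqstm1 on each array (y axis, log2 relative to the array's 75th percentile, each panel spanning the same range), with sample numbers beside the points and mean ± SD of 4 arrays per genotype as bars. The genotypes overlap in every panel but the brighter probe of Atg4c, where the NB arrays lie at 0.09 to 0.14 and the NN arrays at -0.05 to 0.04.

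Arrays of the same genotype stood apart from each other. On NB 2, 10 of the 38 genes lay more than 0.2 below their own mean over the 8 arrays, and NB 2 was the lowest array for 15 genes and the highest for 2. NB 8, of the same genotype, was the highest array for 13 genes and the lowest for 2. NN 6 was the lowest for 13. The median deviation of the 38 genes was -0.05 on NB 2, -0.01 on NB 3, -0.03 on NB 5, 0.07 on NB 8, 0.04 on NN 1, -0.01 on NN 4, -0.07 on NN 6 and close to 0 on NN 7. Over all features it ran from -0.01 on NB 5 to 0.03 on NN 1. Array weights from limma, estimated over all features and lower where an array varies more, were 0.513 on NB 8 and 0.632 on NB 2. The other arrays had 0.907 to 1.55, so the wider spread of NB 2 and NB 8 was not particular to these genes. How often each array was lowest or highest was not counted over all features. All 8 arrays shared a slide, each column of which held 1 array of each genotype by the file naming. NB was higher than NN in 7 of the 38 genes in column 1, in 24 in column 2, in 19 in column 3 and in 24 in column 4. The median difference in column 1 was -0.11 for the 38 genes and -0.04 over all features. In columns 2, 3 and 4 it was 0.02, 0.01 and 0.05 for the 38 genes and 0.01, -0.01 and 0.01 over all features. Atg4c was the 1 gene of the 38 with the same sign in all 4 columns. That sign was fixed by its NB values all lying above its NN values, so it adds nothing to that result. How many of all features kept their sign in 4 columns was not counted.

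The 3 arrays named also stood at the ends of overall brightness. The 75th percentile of the processed signal, in intensity units, was 584 on NB 2, the brightest, and 445 on NN 6 and 469 on NB 8, the dimmest, a range of 0.39 on the log2 scale. Its difference between genotypes did not pass the threshold (exact permutation test, two-sided p = 0.6). With that brightness as a covariate beside genotype, a fit chosen after these values were seen, 14 of the 38 genes (36.8%) had an unadjusted p under 0.05 for brightness in limma, against 20.9% of all features. After adjustment 0 of the 38 passed, as did 0% of all features. The signal is set relative to this percentile, so the covariate also enters the values it is fitted to. Lower on brighter arrays were 9 genes (10.3% of all features were): Atg13, Becn1, Wipi2, Atg2a, Atg9a, Atg16l1, Atg16l2, Map1lc3a and Gabarap. Higher on brighter arrays were 5 (10.6% of all features): Atg14, Atg5, Atg7, Gabarapl1 and Gabarapl2. The log2 slope per doubling of brightness was -1.46 (SE 0.303) for Gabarap and -1.71 (SE 0.392) for Atg13, but 1.73 (SE 0.634) for Gabarapl1 and 0.98 (SE 0.329) for Gabarapl2, so Atg8 proteins stood on both sides with all 8 arrays. The counts rested on few arrays. In all 5 genes were left without NB 2, 8 without NN 6 or without NB 8, and 9 without NN 1. The genes higher on brighter arrays numbered 0 without NN 1 and 0 without NN 6, 1 without NB 2, and 3 with median scaling, without NB 5, without NN 7 or in the authors' value table. Those lower on brighter arrays numbered 4 without NB 2 or without NB 8. The part of array brightness in the spread of these genes was not tested further.

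**Figure D3:**
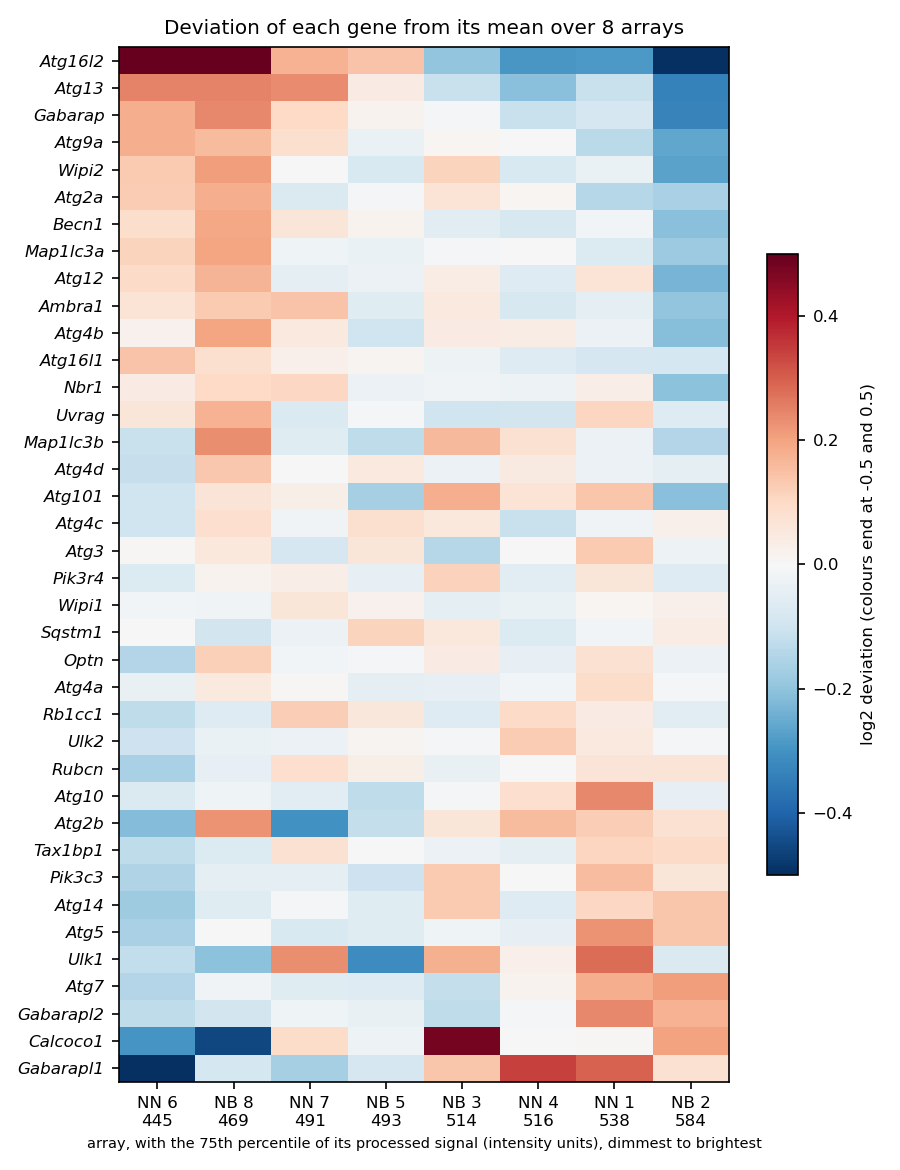
Deviation of each of the 38 genes (rows) from its mean over 8 arrays (colour, log2), with arrays (columns) from dimmest to brightest by the 75th percentile of the processed signal, which stands under each name in intensity units, and genes ordered by their slope on that brightness. Upper rows, from Atg16l2 and Atg13 down, run from high on NN 6 and NB 8 to low on NB 2, and the lowest rows run the other way.

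Atg16l2, a paralog of Atg16l1, moved most among the arrays and was the gene on which the genotypes could be compared least precisely. Its brightest probe read 2.20, 2.19, 3.16 and 2.66 on the NN arrays and 1.67, 2.29, 2.63 and 3.09 on the NB arrays. NN 6 and NB 8 were high, NB 2 was low, and the residual SD of 0.533 was above that of 96.3% of all features. The difference between the genotypes was -0.14 (SE 0.319, unadjusted p = 0.681), and it was 0.11 without NB 2 and 0.07 without NN 6. Its slope on array brightness was -4.11 (SE 0.398), the steepest of the 38. The probe of the curated transcript read -0.89, -0.82, -0.37 and -0.91 on the NN arrays and -0.98, -0.91, -0.83 and -0.64 on the NB arrays. It spanned 0.61 from lowest to highest array, against 1.49 for the brightest probe, with a difference of -0.09 (SE 0.136). The probe of the second transcript model read -3.34, -2.91, -2.52 and -2.94 on the NN arrays. On the NB arrays it read -3.19, -3.09, -2.85 and -2.84. It spanned 0.82, with a difference of -0.07 (SE 0.169). At each of the 3 probes NN 6 was the highest array and NB 8 the next. NB 2 was lowest at the brightest probe and at that of the curated transcript, and NN 1 at that of the second transcript model.

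Probes with such repeats were then set side by side with it, a comparison chosen after the values were seen. Among the 42982 features, 458 (1.07%) had a probe with a run of 4 or more TG or GT repeats, and Atg16l2 was the 1 gene of the 38 with such a probe. Becn1 and Atg10 had a run of 3, and the other 35 had shorter ones. The median slope on array brightness was 0.16 for the 41097 features with runs of 0 to 2 repeats, -0.06 for the 1427 with 3, -0.75 for the 227 with 4, -2.72 for the 83 with 5 and -4.09 for the 148 with 6 or more. Of these 148 features 98.0% had an unadjusted p under 0.05 for brightness in the fit with that covariate. In the fit without it 0% had one for genotype. That fit leaves the spread with brightness in the residual, and their median residual SD there was 0.561, against 0.172 over all features. The longest run in the Atg16l2 probe is 4, and its slope was steeper than in most of that class: 5 of the 227 features (2.20%) had a slope at or below it. Of the 148 features with 6 or more repeats, a class to which the probe does not belong, 71 (48.0%) did.

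Array by array, the probe's own class, the 227 features with 4 repeats, had a median deviation of -0.07 on NN 1, -0.05 on NN 4, 0.13 on NN 6 and 0.0022 on NN 7. On NB 2, NB 3, NB 5 and NB 8 that class stood at -0.17, -0.02, 0.0023 and 0.16. The median deviation of the 148 features with 6 or more was -0.28 on NN 1, -0.32 on NN 4, 0.58 on NN 6 and 0.17 on NN 7, and the brightest probe of Atg16l2 deviated there by -0.29, -0.29, 0.67 and 0.17. On NB 2, NB 3, NB 5 and NB 8 the 148 features stood at -0.73, -0.30, 0.01 and 0.86, and the Atg16l2 probe at -0.82, -0.20, 0.14 and 0.60. All 3 series were high on NN 6 and NB 8 and low on NB 2, and the class with 4 repeats moved less than the probe. The 148 features had a median log2 fold change of -0.07 between the genotypes. What RNA the Atg16l2 probe binds, and the part of its sequence in these values, was not tested.

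**Figure D4:**
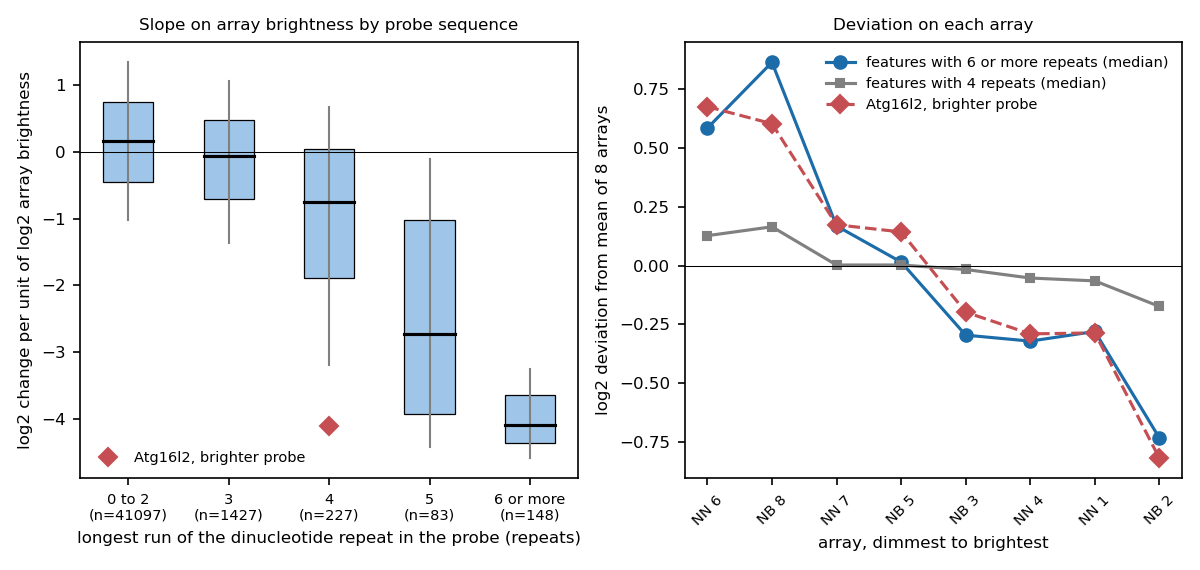
Left, slope of the signal on array brightness (y axis, log2 per log2 unit) by the longest TG or GT run in the probe (x axis); boxes span the quartiles, black lines mark medians, grey lines run from the 10th to the 90th percentile, and the diamond is the brightest probe of Atg16l2. Right, deviation on each array (y axis, log2), from dimmest to brightest, of the median of 148 features with 6 or more repeats, of the median of 227 features with 4, and of that Atg16l2 probe; all are highest on NN 6 and NB 8 and lowest on NB 2.

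Promoters were searched for the E-box read by the basic helix-loop-helix factors Tfeb and Tfe3, which drive lysosomal and autophagy genes. RefSeq windows (GRCm38.p6, 250 bases before to 50 after the transcript start) were given for 32 of the 38 genes, and both strands were searched. CACGTG stood in the windows of 5 of the 32 genes (15.6%), Atg14, Atg3, Atg5, Atg7 and Rubcn, against 8.09% of all genes with a window. The longer TCACGTGA, which contains it, stood in that of 1 (3.13%), Atg3, against 1.13% of all genes. The stretches of Atg3, which holds both, and of Atg7 are shown 5′ to 3′ with the match in capitals.
Atg3, chr16:45158709-45158766, plus strand: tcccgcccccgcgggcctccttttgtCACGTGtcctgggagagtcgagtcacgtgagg
Atg3, chr16:45158731-45158790, plus strand: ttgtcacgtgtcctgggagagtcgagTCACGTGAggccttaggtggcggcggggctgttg
Atg7, chr6:114670938-114670995, plus strand: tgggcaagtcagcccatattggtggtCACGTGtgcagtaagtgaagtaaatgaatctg
The 5 genes had log2 fold changes between NB and NN of 0.07 (Atg14), -0.03 (Atg3), 0.03 (Atg5), 0.0026 (Atg7) and 0.0084 (Rubcn). A match describes the letters only.

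Around the 38 genes, 68 further genes of the pathway were measured in 5 lists: further core factors, fusion with the lysosome, signals to ULK1, transcription factors and organelle receptors. With limma 0 of the 68 passed the adjusted threshold in either direction, 0 had an unadjusted p under 0.05, and 34 were above 0. Across the other settings 7 of the 68 had an unadjusted p under 0.05 in at least 1 and 0 passed the adjusted threshold. Among 14 organelle receptors, 7 were above 0, and Retreg1, a receptor for the endoplasmic reticulum, had the largest value, 0.32 (SE 0.146, unadjusted p = 0.058). It read 2.26, 2.05, 1.65 and 1.61 on the NN arrays and 2.15, 2.19, 2.20 and 2.31 on the NB arrays. With 1 array left out the difference ranged from 0.23 to 0.44. The 0.44, with an unadjusted p of 0.00756 in limma, came without NN 1, the NN array that lay among the NB values. Sec62, another receptor for the endoplasmic reticulum, stood at -0.09. Among 20 genes of the signals to ULK1, 6 were above 0, and Prkab2, a regulatory subunit of AMP-activated kinase, had the smallest p of the 68, at -0.16 (SE 0.069, unadjusted p = 0.0502). Lamtor2, of the Ragulator complex that recruits mTORC1 to the lysosome, stood at -0.16. Among 15 genes of fusion, 10 were above 0, and Snap29 and Vamp8, SNARE proteins of autophagosome fusion, stood at -0.15 and -0.11. Of 9 further core factors 6 were above 0, with Atg9b at 0.19 and Nrbf2 at -0.09. In that list 8 genes were well above background on 8 of 8 arrays, and Atg9b was not. Its mean level was -5.27 in NB and -5.46 in NN, and its difference was 0.04 with normexp background correction. Of 10 transcription factors 5 were above 0, with Creb1 at 0.10 and Ppara, the fatty acid receptor, at -0.09.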

How the data were processed

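Liver RNA of 8 samples, 4 per genotype, was hybridised to 1-colour Agilent arrays. Per the file headers, the deposited processed signal is a background-subtracted intensity from Feature Extraction 11.5.1.1 (the submitters' processing notes name version 9.1), with no normalization between arrays. The authors' value table holds linear intensity values whose sorted columns are identical, each with a median of 84.2; its scale and centring are not stated. Probes were named through their accession from RefSeq (GRCm38.p6): 31064 of 60273 probes, of 26698 genes. Outlier spots (248 to 621 per array) were treated as missing, spots of a probe were averaged, and log2 processed signal was set relative to each array's 75th percentile. Probes well above background on at least 4 arrays were kept, with the brightest kept probe per gene. The number of arrays limits the precision.

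NB was set against NN in a linear model over 42982 features, fitted with limma (version 3.58.1, under R 4.3.3) and moderated by eBayes; p-values are two-sided, were adjusted by the Benjamini-Hochberg method and were read at 0.05. The scripts were tested on simulated data. The genes and lists were chosen with earlier results of these data known. Within each step the 3 genes with the smallest p were named, with genes whose genotypes did not overlap, whose probes differed in sign or whose spread was largest; the remaining members were added for their role or slope on brightness. In each further list the 2 genes with the smallest p were named. Alternatives covered background correction, scaling, filter, probe summary, variance model, slide position and each array left out; the fit with array brightness and the choice of another probe of Atg4c and Atg16l2 were added after the data were seen. Promoter windows were not given for 6 of the 38 genes, and proteins were not used here.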

Additional observations from a re-analysis of the deposited data

Results flagged for a closer look

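Of 118 sets of 4 arrays examined, 4 (3.39%) held an array far from the other 3, where chance gives about 5%. Among the autophagy genes, Rb1cc1 in NB read 0.274 on NB 5 and 0.151 to 0.162 on the other 3 arrays. The median deviation of the conjugation genes was 0.0809 on NB 8 and -0.0392 to -0.0255 on the other NB arrays. Nrbf2, a subunit of the lipid kinase complex that belongs to the further core factors, read 1.77 on NB 3 and 1.87 on the other 3. The median coefficient of variation between replicate spots was 2.18% on NB 8 and 3.47% to 3.52% on the other NB arrays.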

How the results depend on the processing

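None of the 38 autophagy genes passed an adjusted p of 0.05 between the genotypes in any of the settings run, and the smallest adjusted p was 0.999. The count at an unadjusted p under 0.05 moved from 0 to 1 with normexp background correction (Atg4c, at 0.13), and ranged from 0 to 1 without 1 array (Ulk1, without NB 3). Features called were 5 with the mean of probes and 2 to 3 without 1 array. Direction was followed gene by gene for 22 of the 38 genes and 10 of the 68 further genes. Other members turned too and are not listed. Of the 38 genes, 15 were above 0 in the main fit, 18 with quantile normalization and 20 in the authors' value table. Among the genes followed, the direction turned for Gabarap with quantile normalization (0.0054), in the authors' value table (0.0075) and with array brightness as a covariate (0.0306). It turned for Ulk2 with the mean of probes (0.0037). With that covariate it also turned for Becn1 (0.017), Atg16l2 (0.0677) and Gabarapl1 (-0.0644). Without 1 array the log2 fold change ranged from -0.0888 to 0.0199 for Ambra1, -0.3589 to 0.1144 for Atg16l2, -0.0146 to 0.0989 for Atg2a, -0.127 to 0.0136 for Atg9a, -0.0966 to 0.0382 for Becn1, -0.0443 to 0.2669 for Calcoco1, -0.1286 to 0.063 for Gabarap, -0.1459 to 0.1384 for Gabarapl1, -0.106 to 0.032 for Gabarapl2, -0.0057 to 0.1206 for Map1lc3b, -0.139 to 0.0025 for Ppara and -0.0584 to 0.0192 for Ulk2. The cause of these turns was not tested. The genes that changed with array brightness at an unadjusted p under 0.05 numbered 5 to 14 without 1 array, and 14 or 15 under other scalings. The other 647 of 673 values of the 32 genes followed kept their direction and their side of the adjusted threshold, though some crossed the unadjusted one. Atg9b gave no value with the filter on all 8 arrays. Of the 68 further genes, Prkab2 had an unadjusted p under 0.05 in 6 other settings (0.014 with normexp), Retreg1 in 4 and Snap29 in 3, and Akt1s1, Lamtor2, Rragc and Wdr45b in 1 each, all without 1 array. No paired analysis was possible because the replicate numbers of the labels run through both genotypes and none is shared; a fit with the slide column as a block, which sets 1 NB array against 1 NN array by position, called 0 of the 38 genes and 3 features.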
